A study of Zea mays with 24 samples.

Results

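In maize (Zea mays) endosperm 23 of 44146 nuclear gene models were higher with JA (jasmonic acid) than without it in both wild type and ZmICE1a mutant libraries, when the libraries are read by the names of their count files. The 23 were chosen on the values themselves. A gene was kept when its mean CPM (counts of a gene scaled to a common library total of 1000000) was 10 or more in the group named as treated, and when the log2 ratio of treated to untreated mean CPM, each with 1 CPM added, was 0.8 or more, in wild type and in the mutant alike. The label of the set holds on that reading only, because titles and file names give 6 of the 12 libraries of the JA experiment opposite treatments.

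Jasmonates are lipid-derived plant hormones of wounding, pathogen attack and reproductive development. The active conjugate is bound by an F-box receptor, which sends JAZ repressor proteins to degradation and so frees MYC-type transcription factors to act on defence and hormone genes, a scheme worked out mainly in Arabidopsis. Endosperm is the nutritive tissue of the cereal kernel and fills with starch and storage protein in the weeks after pollination. ZmICE1a is a maize relative of ICE1, a bHLH transcription factor known in Arabidopsis from the response to cold. IAA (indole-3-acetic acid) is the main natural auxin.

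The study counted RNA in 24 libraries by MP3RNA-seq, each made from 5 to 10 pooled endosperms at 15 days after pollination, in 8 groups of 3. The genotype experiment set the ZmICE1a mutant against wild type, both without hormone. The IAA experiment set IAA-treated wild type against untreated wild type. The JA experiment had 4 groups, wild type and mutant with and without JA. The nature of the mutant allele, the genetic background, and the doses, times and manner of hormone treatment were not given in the sources used here. Whether the 3 libraries of a group stem from different plants is left unsaid by the labels. A p-value therefore measures the spread between those libraries alone, and that spread may be technical.

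All labels agreed for 2 groups of the JA experiment, wild type untreated and mutant JA. A further 3 libraries carry the title of mutant without JA, a genotype field of wild type and a treatment field of untreated, while their count files are named wild type with the number 100. The remaining 3 carry the title of wild type with JA, a genotype field of mutant and a treatment field of treated, while their count files are named mutant with the number 0. Taken from the 2 fields alone, the former would repeat the wild type untreated group and the latter the mutant JA group, leaving no mutant untreated and no treated wild type group. The former are called "wild type JA by file name" and the latter "mutant untreated by file name" below. By title, both ratios that chose the genes would be differences between mutant and wild type, the first without JA and the second with it.

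Total counts were 3109928 to 4875478 per library in the genotype experiment, 432016 to 959735 in the IAA experiment and 839322 to 1917363 in the JA experiment. Wild type untreated libraries were the deepest of the JA experiment, with 1660718 or more. A level of 10 CPM corresponded to 11.7 to 13.2 counts in the libraries of wild type JA by file name and to 8.47 to 8.57 in those of mutant JA. Unnamed features with ENSRNA identifiers held 3.33% to 10.7% of all counts in mutant untreated by file name and 1.13% to 3.61% in the other 9 libraries of that experiment. Their part in the ratios was measured by leaving them out of the library totals, which again gave 23 genes, 21 of them among the original 23.

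The files give neither names nor coordinates for nuclear genes, and RefSeq's gene table for Zm-B73-REFERENCE-NAM-5.0 matched 0 of the 44146 identifiers and 0 of the 23. The genes are therefore given by identifier, with no role, position or sequence, the level of ZmICE1a is not given, and the tissue label was not checked against endosperm marker genes. In place of these, 4 nuclear genes of the genotype experiment were looked at across the JA libraries, the 2 that rose and the 2 that fell most among those called by edgeR, at 10 CPM or more in 1 group and with groups that did not overlap. Zm00001d020949 was at 2.19 to 4.92 CPM in wild type and 10.8 to 19.6 in the mutant of the genotype experiment. In the JA experiment it was at 0 to 2.87 CPM in wild type untreated, 0 to 3.03 in wild type JA by file name, 8.13 to 21.4 in mutant untreated by file name and 10.5 to 11.7 in mutant JA. Its levels thus parted the libraries as the genotype fields and the file names do, and not as the titles do. Zm00001d041300 separated no groups there. It was at 14.3 to 17.8 CPM in wild type and 2.56 to 3.30 in the mutant of the genotype experiment, but at 23.8 to 48.7 CPM over all 12 JA libraries, mutant JA included. Zm00001d040153, lower in the mutant of the genotype experiment, and Zm00001d041436, higher in it, also overlapped between wild type untreated and mutant JA. Of the 74 nuclear genes called higher in that mutant by at least 1 on the log2 scale, 43 met the same limits of level and overlap. Against wild type untreated, 22 of these 43 were higher in mutant untreated by file name and 13 in wild type JA by file name. Of 7844 nuclear genes with 10 CPM or more in both groups named as treated, 3594 and 2320 were higher in these comparisons. Of the 33 of 75 genes called lower that met the limits, 22 and 21 were lower in the same comparisons, which share the wild type untreated libraries. Of the 7844, which were not matched for level, 4250 and 5524 were lower. In mutant JA against wild type JA by file name, 30 of the 43 were higher and 18 of the 33 lower. There 4374 of the 7844 were higher and 3470 lower. Against mutant untreated by file name, mutant JA had 21 of the 43 higher and 21 of the 33 lower. Of the 7844, 3270 were higher there and 4574 lower. No library was reassigned on these values.

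The 2 lists behind the set were of unequal length. In the wild type pair, 95 of 8483 nuclear genes with 10 CPM or more in the treated group reached the ratio (1.12%), and in the mutant pair 301 of 8642 did (3.48%). The 23 shared genes made up 24.2% of the former list and 7.64% of the latter. The pairs have no library in common. Of the 72 genes on the wild type list alone, 16 were under 10 CPM in mutant JA, 43 of the others had a ratio above 0 in the mutant pair and 13 had one of 0 or below, with a median of 0.33 on the log2 scale. Of the 278 on the mutant list alone, 109 were under 10 CPM in wild type JA by file name, 109 had a ratio above 0 in the wild type pair and 60 one of 0 or below, with a median of 0.19.

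**Figure D1:**
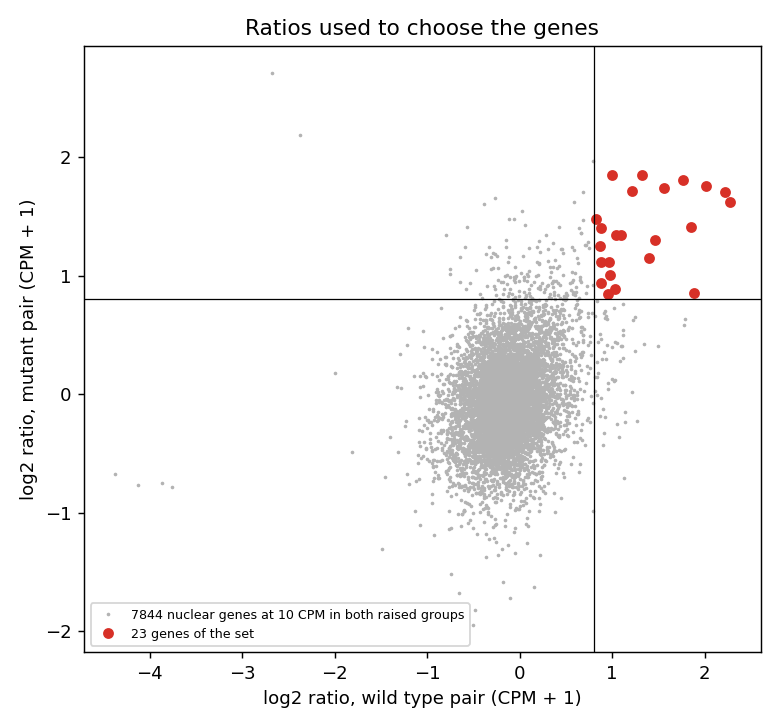
Log2 ratio of mean CPM + 1 in the wild type pair (horizontal axis) and the mutant pair (vertical axis), by file name, for 7844 nuclear genes with 10 CPM or more in both groups named as treated. The 23 chosen genes (red) lie above the lines at 0.8, with wild type ratios up to 2.27 and mutant ratios up to 1.85.

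Over the 23 genes the log2 ratio ran from 0.83 to 2.27 in the wild type pair (median 1.10) and from 0.84 to 1.85 in the mutant pair (median 1.34). Over all 7844 genes with 10 CPM or more in both treated groups the medians were −0.14 and −0.07. Because these values chose the genes, they are a description and carry no test. All 3 treated libraries lay above all 3 untreated ones for 23 of 23 genes in the wild type pair, against a background of 5.54% of the 8483 genes, and for 21 of 23 in the mutant pair, against 8.63% of the 8642. The rule itself favours such separation, and the background genes were not chosen by their ratio. The 2 that overlapped in the mutant pair were Zm00001d003191 and Zm00001d012022, which each held only 5 counts in their lowest mutant JA library. The set was mostly of low level, with a median of 20.9 CPM over the 12 libraries and a range of 7.36 to 436.

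**Figure D2:**
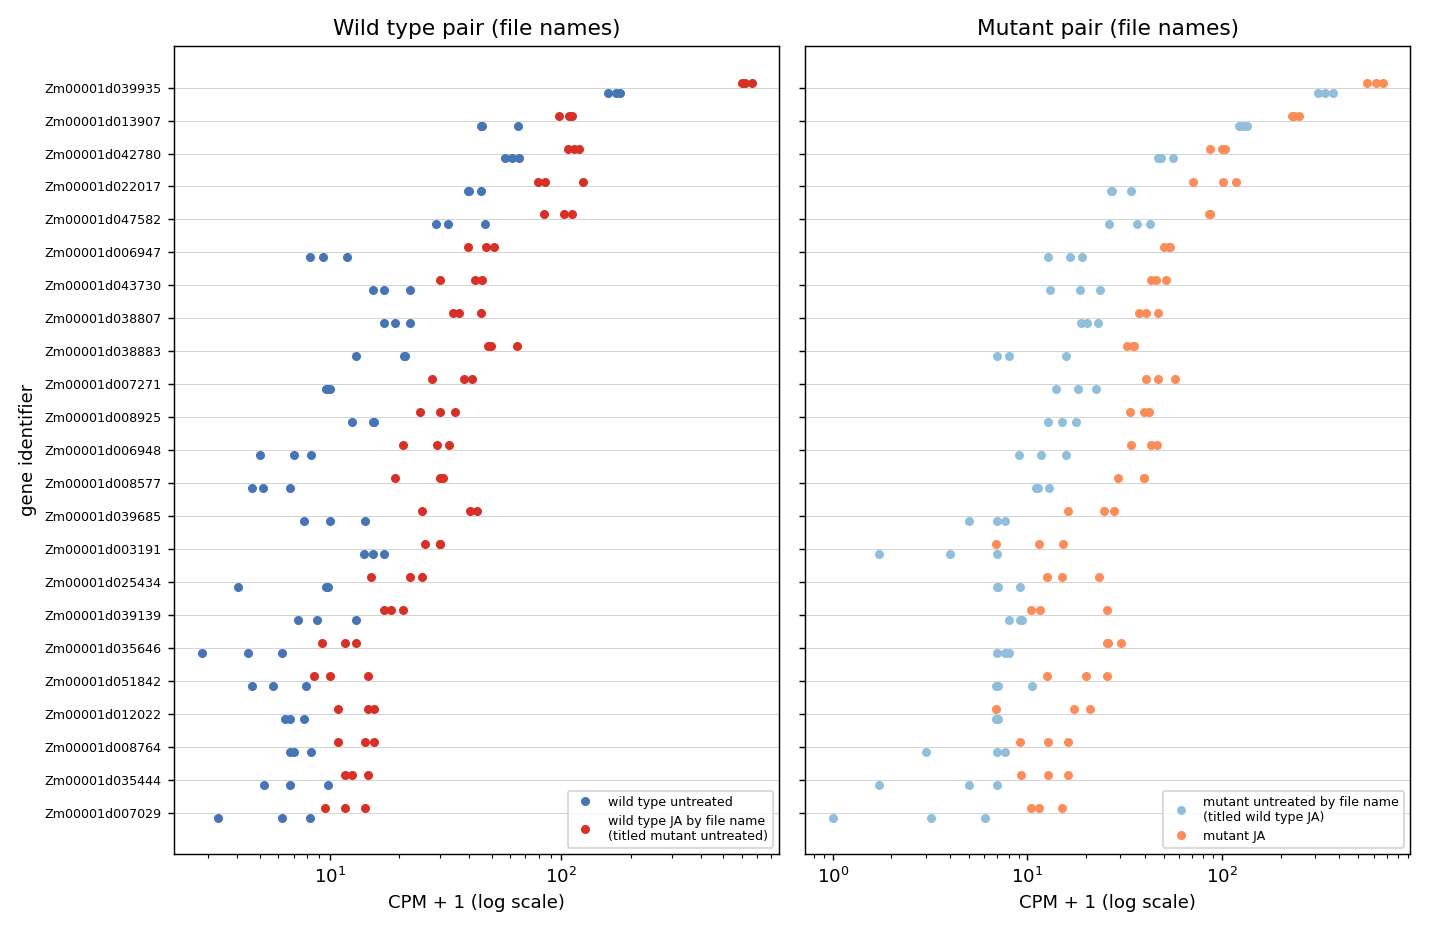
CPM + 1 on a log axis of each of the 23 genes in the 12 libraries of the JA experiment, 1 point per library, for the wild type pair (left) and the mutant pair (right) by file name. Treated points (red, orange) lie to the right of untreated ones (blue) for every gene in the left panel and for all but Zm00001d003191 and Zm00001d012022 in the right.

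Ranked by the smaller of their 2 ratios, the highest genes were Zm00001d039685 and Zm00001d006948. Zm00001d039685 was at 6.78, 13.2 and 9.03 CPM in wild type untreated, at 39.3, 42.5 and 23.9 in wild type JA by file name, at 6.65, 4.03 and 5.96 in mutant untreated by file name and at 15.2, 23.6 and 26.8 in mutant JA. Its groups were apart in both pairs, with log2 ratios of 1.76 and 1.81. Zm00001d006948 was at 7.3, 4.02 and 6.02 CPM in wild type untreated and at 31.6, 28 and 19.8 in wild type JA by file name, and at 14.8, 8.06 and 10.7 in mutant untreated by file name and 42.2, 33 and 45.5 in mutant JA, with ratios of 2.02 and 1.76. Again no treated library reached down to an untreated one.

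Zm00001d006947, whose identifier number is next to that of Zm00001d006948, had ratios of 2.22 and 1.70. It was at 8.83 ± 1.89 CPM (SD, n = 3 here and below) in wild type untreated, 44.9 ± 5.90 in wild type JA by file name, 15.1 ± 3.17 in mutant untreated by file name and 51.6 ± 2.09 in mutant JA. This is the 1 pair of neighbouring numbers in the set, picked out after its values were seen. How the counting treated reads that fit both genes was not given in the sources used here, so they may not be separate measurements. The highest single ratio of the wild type pair, 2.27, was that of Zm00001d008577, also named after its values were seen, from 4.51 ± 1.10 to 25.6 ± 6.49 CPM, with 10.8 ± 0.994 and 35.2 ± 5.93 in the mutant pair.

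The most abundant genes were Zm00001d039935 and Zm00001d013907. Zm00001d039935 was at 178, 171 and 158 CPM in wild type untreated, 618, 597 and 662 in wild type JA by file name, 310, 335 and 368 in mutant untreated by file name and 669, 614 and 552 in mutant JA. The 2 treated groups overlapped in level while the untreated groups did not, so its ratio was 1.88 in the wild type pair and 0.85 in the mutant pair, the widest gap of that sign in the set (mutant minus wild type −1.03). Zm00001d013907 was at 50.7 ± 11.3 CPM in wild type untreated, 105 ± 6.79 in wild type JA by file name, 127 ± 6.51 in mutant untreated by file name and 236 ± 9.56 in mutant JA. Both of its mutant groups lay above the matching wild type groups with no overlap, and the ratios were close to each other at 1.03 and 0.89. The widest gap of the other sign was that of Zm00001d007029 (0.86), which was at 5.22, 2.3 and 7.23 CPM in wild type untreated and 8.54, 10.6 and 13.2 in wild type JA by file name, against 2.22, 5.04 and 0 in mutant untreated by file name and 14.1, 9.44 and 10.5 in mutant JA. The mutant untreated level of this gene rests on 8 counts in all.

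Over the 23 genes the mutant ratio was the larger for 14 and the wild type ratio for 9, with a median difference of 0.06 on the log2 scale. Untreated levels differed by file-name genotype in no common direction. The log2 ratio of mutant untreated by file name to wild type untreated was above 0 for 11 genes and below 0 for 12, from −1.87 to 1.31 with a median of 0.00, against −0.03 over the 7844 genes. That of mutant JA to wild type JA by file name was above 0 for 13 and below 0 for 10, from −1.35 to 1.27 with a median of 0.07, against 0.04 over the 7844. By title these 2 comparisons would be the JA responses of wild type and of the mutant. On the title reading the 23 genes therefore had median JA responses of 0.00 and 0.07, and median mutant to wild type ratios of 1.10 without JA and 1.34 with it. The lowest of these values belonged to Zm00001d003191, at 14.6 ± 1.62 CPM in wild type untreated, 27.5 ± 2.41 in wild type JA by file name, 3.24 ± 2.62 in mutant untreated by file name and 10.2 ± 4.16 in mutant JA. These comparisons use the libraries that chose the genes and were not tested.

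Membership turned on small margins at the threshold. Just inside the ratio limit were Zm00001d035444, with a smaller ratio of 0.832, and Zm00001d039139, with 0.841. Just outside were Zm00001d037684 with 0.795 and Zm00001d046422 with 0.795. At the limit of 10 CPM, Zm00001d051842 (10.1) and Zm00001d003191 (10.2) were inside and Zm00001d049061 (9.98) and Zm00001d037035 (9.86) outside, by their smaller treated mean. Without any 1 of the 12 libraries in turn the rule gave 21 to 29 genes, and 14 of the 23 were kept in all 12 cases. With library sizes scaled by TMM the wild type ratios of all genes moved up by a median of 0.13 and the mutant ratios by 0.06 on the log2 scale, and 38 genes passed, all 23 among them. On that scale the lowest ratios of the 23 were 0.95 and 0.89.

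The genotype experiment was not used to choose the genes, and it asks whether the mutant differs from wild type without hormone. In it 1 of the 23 was higher in the mutant and 1 was lower, of 15 that passed the low-count filter (edgeR quasi-likelihood test, adjusted p under 0.05, 3 libraries per group). That is 13.3% of those tested, against 6.19% of all 17841 features tested. The median log2 fold change of the 15 was −0.08, against 0.00 over all features, and 11 of the 15 were below 0. The median size of the change without its sign was 0.16 in both. Apart from Zm00001d039935, the 15 lay between −0.32 and 0.23.

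Zm00001d039935 was at 8.76, 6.77 and 5.69 CPM in wild type and at 11.6, 10.8 and 13.2 in the mutant of the genotype experiment. All mutant libraries lay above all wild type ones, and the gene rose by 0.73 ± 0.21 (SE) on the log2 scale (edgeR adjusted p = 0.0394). The call was lost without wild type replicate 2 or 3 or mutant replicate 1, 2 or 3, with edgeR adjusted p of 0.0714 to 0.171, and kept without wild type replicate 1. By file name, its untreated level in the JA experiment was 338 ± 29.4 CPM in the mutant and 169 ± 10.2 in wild type. Those values entered the rule, and by title their contrast would be a JA response. The 2 groups named as treated overlapped.

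Zm00001d022017 was at 96.2, 106 and 101 CPM in wild type and at 92.6, 85.3 and 85.5 in the mutant. The groups did not overlap, and the gene fell by 0.22 ± 0.06 (SE) on the log2 scale (edgeR adjusted p = 0.0301). This call was lost without wild type replicate 1, 2 or 3 or mutant replicate 2 or 3, with edgeR adjusted p of 0.0538 to 0.148, and kept without mutant replicate 1. DESeq2 called neither gene, with adjusted p of 0.165 for Zm00001d039935 and 0.218 for Zm00001d022017. It called 315 features higher and 245 lower of all 17841. In it 3 of the 15 had an unadjusted p under 0.05, and the share of all features under that threshold was not counted. Zm00001d013907 was at 172, 220 and 176 CPM in wild type and at 213, 230 and 233 in the mutant, groups that overlapped, with a log2 fold change of 0.23 ± 0.07 and edgeR adjusted p = 0.0567. It passed with no low-count filter (edgeR adjusted p = 0.00443), with a filter of 10 CPM in 3 libraries (0.0365), with ENSRNA features left out (0.0241) and with the replicate number as a block (0.0419), and not in DESeq2 (0.101). Without wild type replicate 2 its edgeR adjusted p was 0.0011, and without each of the other 5 libraries in turn 0.0602 to 0.276.

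**Figure D3:**
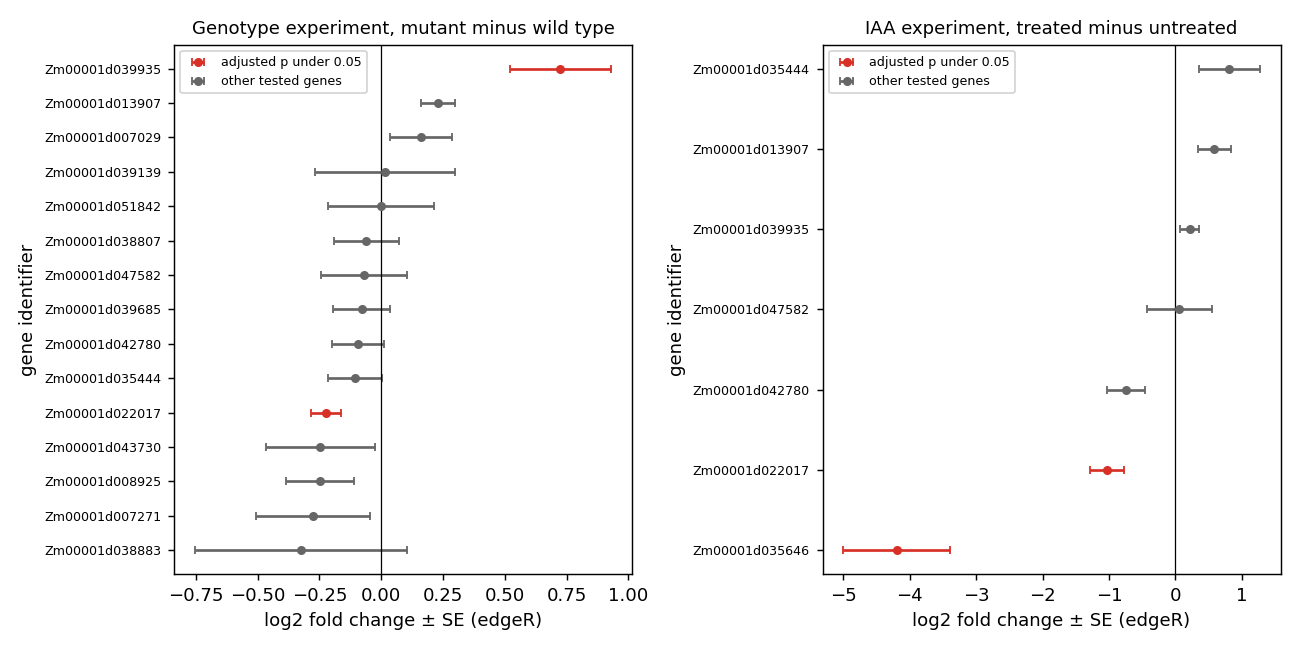
Log2 fold change with its SE (edgeR) of the genes of the set that passed the low-count filter, in the genotype experiment (left, 15 genes) and the IAA experiment (right, 7 genes), on axes of different width. Red points passed an adjusted p under 0.05: Zm00001d039935 and Zm00001d022017 on the left, Zm00001d022017 and Zm00001d035646 on the right.

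The IAA experiment asks which genes auxin moves in wild type endosperm, and it too was not used to choose the genes. Of the 23, 7 passed the low-count filter in these shallow libraries, 0 were called higher after IAA and 2 lower (28.6% of the 7, against 2.42% of all 7687 features tested). Zm00001d035646, 1 of the 2, held 2 counts over the treated libraries and passed the filter through the untreated ones alone. The share of 28.6% is therefore partly tied to the contrast itself. At an unadjusted p under 0.05 there were 4 of the 7, and the share of all features under that threshold was not counted, here or in DESeq2. DESeq2 called none of the 7 in either direction, against 106 higher and 97 lower of all 7687 features. In it 3 of the 7 had an unadjusted p under 0.05. Of the 2 genes called by edgeR, it gave Zm00001d022017 the same log2 fold change of −1.03 with an adjusted p of 0.0527, and Zm00001d035646 an unadjusted p of 0.000227 with no adjusted p. The median log2 fold change of the 7 was 0.06 against 0.00 over all features, and the median size without sign 0.75 against 0.29. The other 16 genes did not pass the filter. With no filter all 23 were tested and the same 2 were called, against 115 higher and 249 lower of all 28249 features. The median size without sign was then 0.72 for the 23 and 0.80 over all features, the opposite order. Among the 16, Zm00001d007029 was at 2.08, 1.21 and 1.64 CPM without and 9.26, 5.33 and 11.5 with IAA. Its groups did not overlap, but they held 4 and 14 counts, and with no filter its edgeR adjusted p was 0.7.

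Zm00001d035646 was at 24, 26.6 and 27.9 CPM without IAA and at 0, 3.55 and 0 with it. It fell after IAA (edgeR adjusted p = 0.0134). The untreated libraries held 62 counts and the treated ones 2, which is a 20.7-fold difference in CPM, and an exact 95% binomial interval for counting error alone ran from 5.51 to 175. Both treated counts came from replicate 2. The fitted log2 fold change was −4.19, −7.18 without treated replicate 2, where the treated libraries held 0 counts and the value depends on the prior count, and −3.60 without treated replicate 3. The call was lost without untreated replicate 2 or 3 or treated replicate 1 or 3, with edgeR adjusted p of 0.0529 to 0.0821, and kept without untreated replicate 1 or treated replicate 2. The same gene was at 3.49 ± 1.70 CPM in wild type untreated and 10.3 ± 1.88 in wild type JA by file name of the JA experiment, and at 6.55 ± 0.554 and 26.2 ± 2.58 in the mutant pair. In the genotype experiment it held 0 counts in wild type, which allows up to 0.217 CPM at 3 counts over the group, and 1 count in the mutant.

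Zm00001d022017 was at 104, 76.1 and 72.2 CPM without IAA and at 44, 40.9 and 39.4 with it. The groups did not overlap, and it fell by 1.03 ± 0.25 (SE) on the log2 scale (edgeR adjusted p = 0.0479), a call lost without any 1 of the 6 libraries in turn, with edgeR adjusted p of 0.0949 to 0.198. Over all features 96 were called higher and 90 lower with the 6 libraries, and 43 to 98 and 31 to 93 with 1 left out. In the JA experiment Zm00001d022017 was at 40.5 ± 2.91 CPM in wild type untreated and 95.2 ± 24.3 in wild type JA by file name, and at 28.4 ± 4.17 and 95.5 ± 23.7 in the mutant pair. Of those with positive values, Zm00001d013907 had the smallest p, with 72.1 ± 17.1 CPM without and 108 ± 25.7 with IAA (log2 fold change 0.58 ± 0.25, edgeR adjusted p = 0.29), and its groups overlapped. Zm00001d039935, at 173 ± 9.94 without and 201 ± 13.9 CPM with IAA (0.22 ± 0.14), did not pass the test (edgeR adjusted p = 0.541) although its groups did not overlap.

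Levels of the set differed widely between the experiments, and these differences were not tested because the labels do not say what else set the experiments apart. In the wild type of the genotype experiment 7 of the 23 genes were under 1 CPM (30.4%), against 64 of the 7844 genes that had 10 CPM or more in both treated JA groups (0.816%). The 7 lay between 0 and 0.947 CPM there, between 0.805 and 26.2 in untreated IAA libraries, where 4 of them had 5 CPM or more, and between 10.2 and 51.6 in the JA groups that chose them. The rule favours genes that are low without treatment, and the 7844 were not matched for level.

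The widest gap between the JA and genotype experiments was that of Zm00001d039935, which was at 7.07 ± 1.56 CPM in wild type of the genotype experiment and at 173 ± 9.94 and 169 ± 10.2 CPM in the untreated wild type of the IAA and JA experiments. Zm00001d006947 and Zm00001d006948 were at 0.716 ± 0.295 and 0.713 ± 0.289 CPM in the genotype experiment and at 14.2 ± 4.22 and 11.7 ± 6.96 in untreated IAA libraries. Other genes went the opposite way. Zm00001d039685 was at 26.0 ± 0.737 CPM in wild type of the genotype experiment, 0.695 ± 1.20 in untreated IAA libraries, where it held 2 counts, and 9.67 ± 3.26 in wild type untreated of the JA experiment. Zm00001d007029 was at 25.0 ± 1.36, 1.64 ± 0.438 and 4.91 ± 2.48 CPM in the same order.

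Between untreated IAA and genotype wild type libraries, neither of which chose the genes, 6 of the 23 were higher by 2 or more and 4 lower by 2 or more in log2(CPM + 1), 26.1% and 17.4%. Over the 7844 genes, which were not matched for level, these shares were 6.43% and 5.67%. The 4 lower genes held only 2 to 8 counts each over the untreated IAA libraries. The JA-untreated wild type, which did enter the rule, gave 7 and 2 of 23 against the genotype experiment (30.4% and 8.70%, against 5.65% and 1.73% of the 7844).

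**Figure D4:**
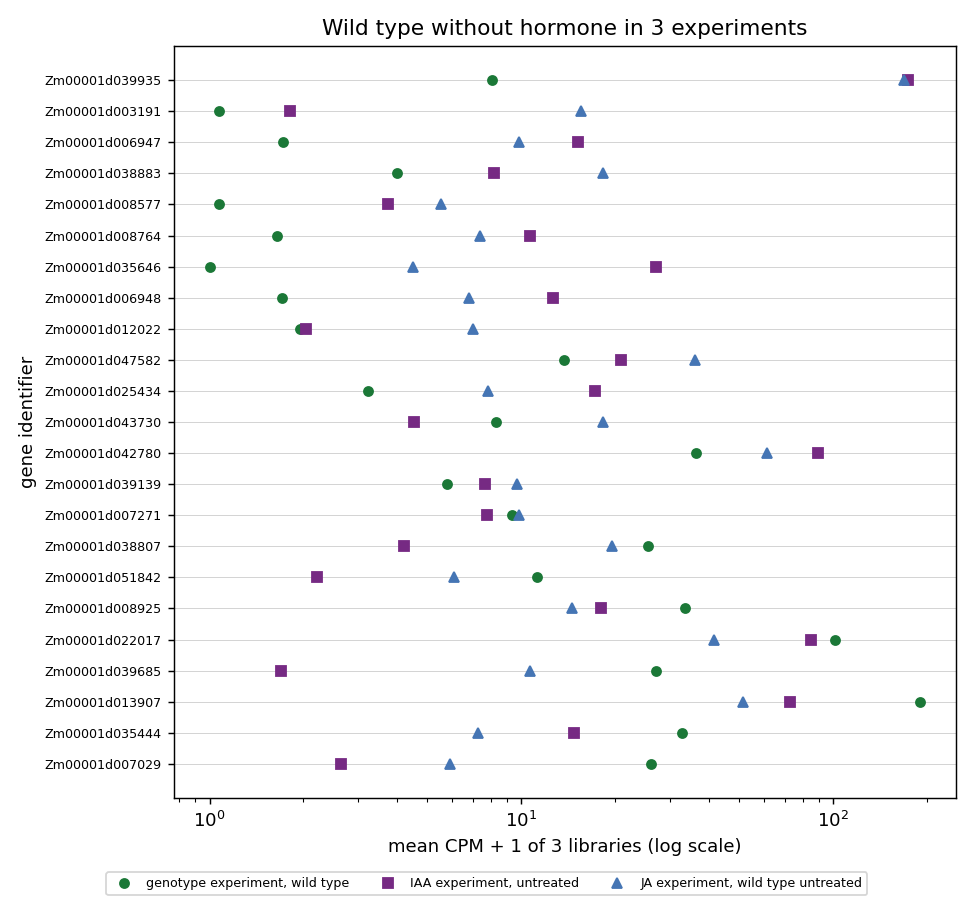
Mean CPM + 1 on a log axis of each of the 23 genes in wild type without hormone in the genotype (green circles), IAA (purple squares) and JA (blue triangles) experiments, 3 libraries each. Genes at the top, such as Zm00001d039935, had lower levels in the genotype experiment than in both hormone experiments, and those at the bottom, such as Zm00001d007029, higher ones.

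Summed over the 23 genes, the level per library was 508 to 536 CPM in wild type untreated, 1418 to 1568 in wild type JA by file name, 714 to 798 in mutant untreated by file name and 1551 to 1642 in mutant JA. Within each pair this gap follows from the rule, which chose the genes on these libraries. The sums were 502 to 565 CPM in wild type and 525 to 557 in the mutant of the genotype experiment, which overlapped. They were 566 to 594 without and 547 to 565 with IAA, which did not. That margin is under 1 count, as the sums nearest each other were 566.5 CPM without and 564.8 with IAA. In the latter library 1 count is 2.31 CPM. Zm00001d039935 alone carried much of these sums. Without it they were 343 to 366 CPM in wild type untreated, 820 to 950 in wild type JA by file name, 389 to 430 in mutant untreated by file name and 973 to 1028 in mutant JA, and 402 to 421 without and 343 to 362 with IAA. In the genotype experiment they were then 496 to 558 CPM in wild type and 513 to 546 in the mutant, above both untreated groups of the JA experiment.

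**Figure D5:**
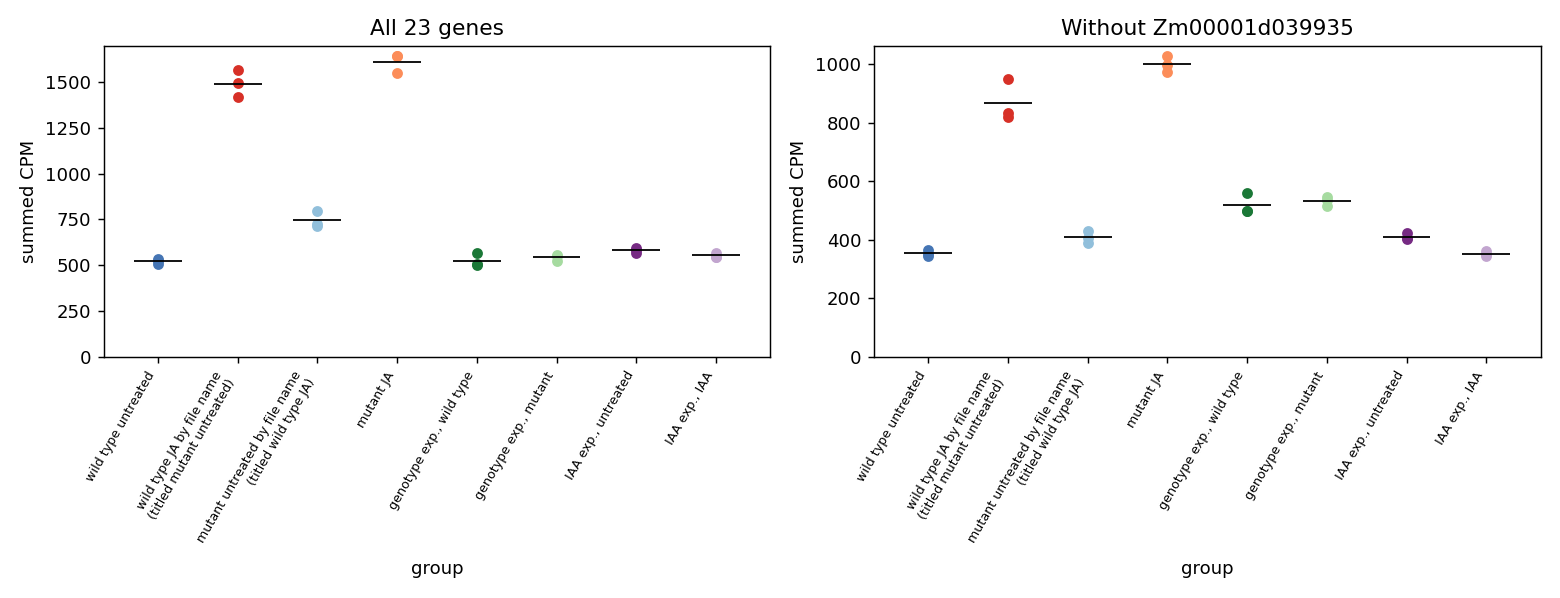
Summed CPM of the 23 genes (left) and of the 22 without Zm00001d039935 (right) in each of the 24 libraries, 1 point per library with the group mean as a line. The 6 libraries named as JA-treated by file name lie at 1418 CPM or more on the left, and the other 18 at 798 or less. The genes were chosen for higher levels in those 6, so their gap to the other JA libraries follows from the rule.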

How the data were processed

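The authors deposited raw counts of 46430 features for each of the 24 libraries, with no normalization. Trimmomatic 0.39 and HISAT2 2.2.1 are the tools named per the submitters' processing notes. The counter, the genome build, the annotation, the use of strand and any duplicate removal were not given in the sources used here. Overlapping genes and near-identical copies are therefore uncertain.

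Samples were grouped by title, and file names were read only to apply the rule that chose the genes. The genes, lists and tests were chosen with earlier results of these data known. Levels are CPM on plain library totals. Each of the genotype and IAA experiments was fitted alone over all features with edgeR 4.0.16 in R 4.3.3 (TMM scaling, filterByExpr at a minimum count of 10, 2-sided quasi-likelihood test, p adjusted over all features by Benjamini-Hochberg, threshold 0.05), and the SE of a log2 fold change is its size divided by the square root of F. No test was run within the JA experiment. The script was tested on simulated data. Replicate pairs differed by more than sampling noise (chi-square per degree of freedom 1.76 to 6.44 over 24 pairs).

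Genes were named by a fixed rule: the 2 highest smaller ratios, the 2 highest levels, the 2 nearest each side of the ratio threshold, the widest ratio differences, and up to 2 called each way per test (the smallest p where none was). Genes named outside it are marked, lie at the CPM limit, or are those whose groups overlapped in the mutant pair. The label check took up to 2 features that rose and 2 that fell most in the genotype experiment, among those called, at 10 CPM or more in 1 group and with groups apart. Both that rose were ENSRNA features of widely scattered counts, so nuclear genes were taken after the data had been seen. Alternatives were DESeq2 1.42.0, RLE scaling, other filters, pseudocounts and thresholds, ENSRNA features left out, the replicate number as a block, and each library left out.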

Additional observations from a re-analysis of the deposited data

Results flagged for a closer look

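ENSRNA features are not among the genes described, although they count in the library totals and among the features tested. Their share of the counts was above the 1.13% to 3.61% of wild type untreated in 2 libraries of mutant untreated by file name. It was 10.7% in replicate 1 and 6.84% in replicate 2, against 3.33% in replicate 3. Leaving ENSRNA features out of the library totals changed 2 of the 23 genes for others and kept the number at 23. Leaving them out of the tests raised the genes called in the genotype experiment from 2 to 3 and kept 2 in the IAA experiment. Over all features, calls in the genotype experiment rose from 576 higher and 528 lower to 688 and 661. In the IAA experiment they rose from 96 and 90 to 154 and 165.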

How the results depend on the processing

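The number of genes was 131 with no minimum level, 38 on TMM-scaled library sizes, 12 with a log2 ratio of 1 or more in both pairs and 14 with a treated level of 20 CPM or more, against 23. Without each JA library in turn it was 21 to 29. In the genotype experiment 2 of the 23 were called, 0 by DESeq2, 1 with the replicate number as a block (Zm00001d013907, not one of the 2), and 0 to 1 without each library in turn. It was 3 with no filter, with 10 CPM in 3 libraries and with ENSRNA features left out, Zm00001d013907 being the gene added. Calls over all features moved as well, from 576 higher and 528 lower of 17841. They were 657 and 772 of 33449 with no filter and 608 and 595 of 11630 with 10 CPM in 3 libraries. With ENSRNA features left out they were 688 and 661 of 17619, and with the block 491 and 458 of 17841. Without each library in turn they were 368 to 448 and 331 to 393. The median log2 fold change of the set (−0.08) ran from −0.11 to −0.02 without each library. In the IAA experiment 2 were called, 0 by DESeq2 (which gave Zm00001d035646 no adjusted p), 1 with a filter of 10 CPM in 3 libraries, 1 with the replicate block, and 0 to 1 without each library in turn. Over all 7687 features 96 were called higher and 90 lower. These were 90 and 90 of 9831 with that filter, 78 and 71 of 7687 with the block, and 43 to 98 and 31 to 93 without each library. The set's median log2 fold change of 0.06 in the IAA experiment rests on the 7 genes tested. It was −0.24 with no filter (23 genes), −0.43 with 10 CPM in 3 libraries (11 genes) and −0.595 to −0.043 without each library in turn, as other genes entered the test.

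Same-numbered libraries did not deviate together (correlations of −0.08 to 0.04 in the genotype and −0.05 to 0.01 in the IAA experiment), so the replicate numbers are not taken as pairs. With the block, edgeR adjusted p was 0.0639 for Zm00001d022017 and 0.0527 for Zm00001d039935 in the genotype experiment and 0.0863 for Zm00001d022017 in the IAA experiment. Depth limits the IAA results, where 16 of 23 genes did not pass the filter.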
